A study of Homo sapiens with 4 samples.

Results

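The transcripts of 55 splicing genes were examined by name in a table of 39259 genes, and all 55 were found by their Entrez IDs. They comprise 12 SR proteins including TRA2A and TRA2B, 15 hnRNPs including the pyrimidine-tract-binding proteins PTBP1 and PTBP3, 17 proteins of the core spliceosome, 7 regulators of alternative splicing and 4 kinases of SR proteins. They were read from 2 libraries labelled as a knockout (KO) of mdig and 2 wild-type (WT) libraries, all made from the established triple-negative breast cancer line MDA-MB-231. Mdig, or MINA53, is the product of RIOX2, an oxygenase with a JmjC domain. The labels name neither the knockout method nor a clone, and no separate cultures, so p-values reflect a spread between libraries that may be purely technical.

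Splicing removes introns from pre-mRNA in the spliceosome, which is built from small nuclear RNAs and their proteins. Each spliceosomal small nuclear RNA of the Sm class carries a ring of Sm proteins, and proteins such as U2AF and the SF3 complexes help to recognise the 3′ end of the intron. SR proteins mostly bind exons and favour their inclusion, whereas hnRNPs package the pre-mRNA and often favour skipping, so the relative amounts of both groups bear on which exons are kept. SR proteins shuttle and act according to their phosphorylation by the SRPK and CLK kinases. Many transcripts of SR proteins and hnRNPs control their own level through exons that expose the mRNA to decay.

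The libraries labelled KO held 48768932 and 52163811 fragments assigned to genes in replicates 1 and 2, against 45173267 and 22503981 in WT replicates 1 and 2. WT replicate 2 was the shallowest, and 3 fragments on a gene of 1 kb corresponded there to 0.133 FPKM (fragments per kilobase and per 1000000 assigned fragments) and to between 0.0575 and 0.0664 FPKM in the others. RIOX2 itself measured 9.23 and 9.82 FPKM in the libraries labelled KO, against 8.60 and 8.24 FPKM in WT (log2 change 0.16, limma adjusted p = 0.0546). Its transcript was not lower, so the RNA leaves the KO label unchecked, and each direction below is between libraries by label. The mesenchymal markers VIM, CD44, MSN and CAV1 lay between 84.3 and 2394 FPKM; CAV1 (0.59) and CD44 (0.18) were called higher and VIM (−0.22) lower. Of 5 epithelial and receptor markers, ESR1 and PGR stood at or below 0.00117 FPKM. CDH1 measured 0.597 and 0.625 FPKM in the libraries labelled KO, against 0.177 and 0.128 FPKM in WT, while EPCAM and GATA3 lay between 1.87 and 4.23 FPKM, EPCAM called higher (0.28) and GATA3 lower (−0.21). Of 6 markers of leukocytes, fibroblasts and endothelium, 4 stayed under 0.2 FPKM in every library, and CD3E was at 0 in 3 of the 4. The list summed to 3.01 and 3.01 FPKM in the libraries labelled KO, against 2.39 and 2.28 FPKM in WT, with PDGFRB and PECAM1 called higher; PECAM1 passed the filter on low values through the libraries labelled KO. The part of such cells in the results below was not tested.

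Of the 54 members that could be tested, 11 rose and 8 fell in the libraries labelled KO (limma with log2(FPKM + 1), adjusted p under 0.05 by Benjamini-Hochberg over 11716 genes). That is 35.2% of the tested members, beside 49.9% of all tested genes, of which 21.6% were higher and 28.4% lower. Among the 6788 genes at least as abundant as the least abundant tested member, 53.0% were called. The members changed by small amounts: their log2 changes ran from −0.40 to 0.48, with a median of −0.022 against −0.041 over all genes. The median size of the change was 0.11 for members and 0.18 for all tested genes. A change of at least 0.25 was reached by 20.4% of members and 37.3% of all tested genes. Changes of 1 or more were rare in both, with 0 of 54 members and 167 of 11716 genes. In 36 of 54 members the FPKM of both groups did not overlap, 16 with the libraries labelled KO above WT and 20 below. The same held for 77.5% of all tested genes, 32.9% above and 44.6% below. The member that was not tested, U2AF1, fell short of a mean of 1 FPKM.

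The split of the members' calls moved with the scaling. It was 13 higher and 4 lower after median-of-ratios scaling, beside 47.8% of all genes called (26.4% higher and 21.4% lower) and a shift of the median of all genes by 0.055. It was 11 higher and 15 lower after removal of trends with length and GC. That is 48.1% of the members, beside 59.4% of all genes called (2829 higher and 3906 lower of 11343). In all 16 alternative fits, 5 members stayed past the threshold with their direction: SRSF11, SRSF4 and HNRNPA2B1 as higher, SNRPF and PRPF19 as lower.

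The promoters of these 5 genes are shown because their calls held in every fit. Each is 300 bases, from 250 before to 50 after a RefSeq start site on GRCh38.p14, written 5′ to 3′ on the strand of the gene. Capitals mark 4 motifs searched on both strands: the CCAAT box CCAAT, the E-box CACGTG, the ETS core CCGGAA and the GC box GGGCGG.
SRSF11, chr1:70205446-70205745, plus strand: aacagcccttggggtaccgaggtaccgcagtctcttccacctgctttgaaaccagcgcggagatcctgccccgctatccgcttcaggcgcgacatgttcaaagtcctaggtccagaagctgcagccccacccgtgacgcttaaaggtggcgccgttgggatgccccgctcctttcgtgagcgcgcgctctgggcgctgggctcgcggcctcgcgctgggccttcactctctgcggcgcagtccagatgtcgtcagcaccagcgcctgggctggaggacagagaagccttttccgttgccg
SRSF4, chr1:29181851-29182150, minus strand: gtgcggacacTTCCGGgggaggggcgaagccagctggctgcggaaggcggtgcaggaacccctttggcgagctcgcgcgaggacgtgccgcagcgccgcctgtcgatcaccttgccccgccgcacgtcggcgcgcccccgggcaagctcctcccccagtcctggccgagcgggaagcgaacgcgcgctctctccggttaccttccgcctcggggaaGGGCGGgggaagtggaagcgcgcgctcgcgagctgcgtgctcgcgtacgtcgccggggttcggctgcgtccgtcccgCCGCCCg
HNRNPA2B1, chr7:26200697-26200996, minus strand: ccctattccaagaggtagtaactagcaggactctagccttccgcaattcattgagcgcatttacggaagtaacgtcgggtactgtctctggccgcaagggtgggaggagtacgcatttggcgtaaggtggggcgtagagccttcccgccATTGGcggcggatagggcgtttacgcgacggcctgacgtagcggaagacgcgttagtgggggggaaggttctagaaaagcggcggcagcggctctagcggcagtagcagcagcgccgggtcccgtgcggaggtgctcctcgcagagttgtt
SNRPF, chr12:95858702-95859001, plus strand: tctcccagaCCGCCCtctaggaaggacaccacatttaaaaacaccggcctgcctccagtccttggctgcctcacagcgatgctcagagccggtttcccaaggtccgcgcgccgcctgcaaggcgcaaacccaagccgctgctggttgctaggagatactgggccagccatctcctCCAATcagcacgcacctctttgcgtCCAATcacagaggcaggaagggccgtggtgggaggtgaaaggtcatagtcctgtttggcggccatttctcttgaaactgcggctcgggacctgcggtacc
PRPF19, chr11:60906536-60906835, minus strand: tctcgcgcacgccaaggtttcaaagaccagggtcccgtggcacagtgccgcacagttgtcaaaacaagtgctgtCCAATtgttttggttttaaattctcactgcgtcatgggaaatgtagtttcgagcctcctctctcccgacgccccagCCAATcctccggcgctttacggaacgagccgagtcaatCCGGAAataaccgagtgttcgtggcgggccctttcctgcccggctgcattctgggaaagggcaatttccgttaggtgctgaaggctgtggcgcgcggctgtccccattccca

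The promoters of SNRPF and PRPF19, the falling pair, each held 2 CCAAT boxes, and that of HNRNPA2B1 held 1, on the opposite strand. SNRPF also had 1 GC box, and PRPF19 had 1 ETS core. SRSF4 had 1 ETS core and 2 GC boxes, and the window of SRSF11 held none of the 4 motifs. RefSeq gave a promoter for 47 of the 55 members, and 17 of them (36.2%) held a CCAAT box, beside 37.7% of the 9232 tested genes with a promoter. A CCAAT box stood in 4 of 9 promoters of members called higher and in 5 of 6 of members called lower. For the ETS core these counts were 4 of 9 and 2 of 6, for the GC box 4 of 9 and 4 of 6, and for the E-box 0 of 9 and 0 of 6. With so few promoters, no difference was tested. An ETS core stood in 34.0% of the members' promoters and 31.8% of all, an E-box in 10.6% and 10.5%, and a GC box in 57.4% and 71.5%. These are matches of letters in a fixed window and do not show that a factor binds there.

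Among SR proteins, 4 of 12 rose and 1 fell, with a median log2 change of 0.052. That is 41.7% called, beside 49.9% of all tested genes (21.6% higher and 28.4% lower). SRSF11, an SR-related protein with an arginine-serine domain (Entrez ID 9295, chromosome 1, 70205696 to 70253052, coordinates as deposited, matching GRCh38), measured 31.9 and 34.6 FPKM in the libraries labelled KO, against 22.8 and 24.1 FPKM in WT. Both libraries labelled KO lay above both WT libraries, and the change of 0.48 (SE 0.061, adjusted p = 0.000479) was the largest rise of any member. SRSF4, also known as SRp75 (Entrez ID 6429, chromosome 1, 29147743 to 29181900), had 52.5 and 53.6 FPKM in the libraries labelled KO and 39.9 and 39.5 FPKM in WT. The groups were far apart relative to the gap within them, with a change of 0.41 (SE 0.051, adjusted p = 0.000434).

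TRA2A, which activates exons through purine-rich enhancers, measured 38.1 and 41.0 FPKM in the libraries labelled KO, against 30.7 and 31.4 FPKM in WT (0.34, SE 0.058, adjusted p = 0.00194). SRSF10, an SR protein that represses splicing when it loses its phosphates, measured 31.0 and 33.0 FPKM in the libraries labelled KO, against 25.2 and 25.1 FPKM in WT (0.34, SE 0.055, adjusted p = 0.00165). Neither gene's groups overlapped. SRSF9, also called SRp30c, went the other way, with 114 and 119 FPKM in the libraries labelled KO and 134 and 138 FPKM in WT (−0.22, SE 0.052, adjusted p = 0.00918). The other 7 SR proteins, SRSF1, SRSF2, SRSF3, SRSF5, SRSF6, SRSF7 and TRA2B, had changes between −0.065 and 0.096 and were not called. This set includes SRSF1, SRSF2 and SRSF3, the best-studied members of the family. SRSF1 stood at 71.3 and 73.1 FPKM in the libraries labelled KO, against 71.5 and 71.6 FPKM in WT. The calls of TRA2A and SRSF10 were lost once the median change of their chromosomal surroundings was subtracted (adjusted p = 0.0629 and 0.221), and that of SRSF9 was lost there too, with a length trend removed and without either KO library.

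**Figure D1:**
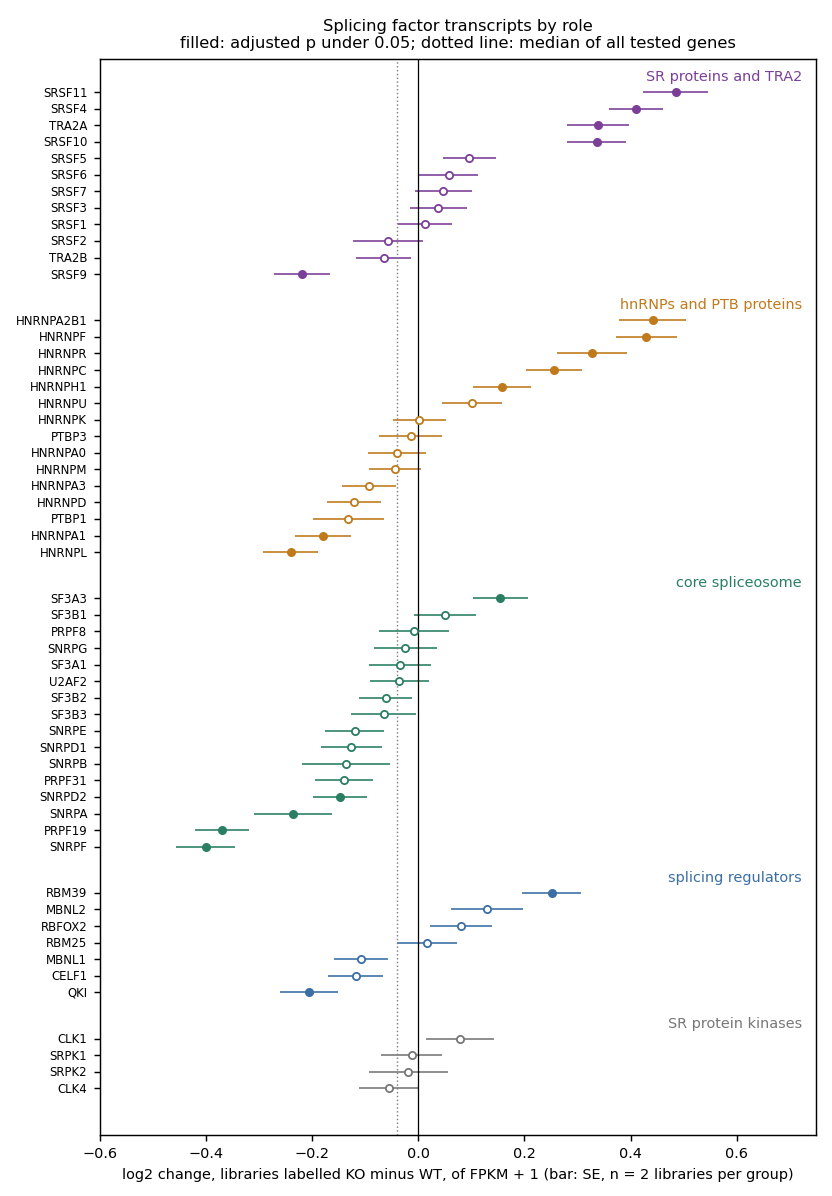
Log2 change (libraries labelled KO minus WT, of FPKM + 1) of the 54 tested members, grouped by role, with bars for the SE from 2 libraries per group. Filled points passed an adjusted p of 0.05. SRSF11 at 0.48 and SNRPF at −0.40 mark the ends of the range; 14 of 16 core members lie below 0, beside 56.2% of all tested genes, and 9 of 16 do so after median-of-ratios scaling.

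SRSF4, SRSF5 and SRSF6 are close relatives with long arginine-serine domains, and they did not move alike. SRSF5 measured 54.4 and 55.5 FPKM in the libraries labelled KO and 51.4 and 51.4 FPKM in WT (0.096, adjusted p = 0.146), and SRSF6 measured 64.7 and 69.2 FPKM in the libraries labelled KO and 63.9 and 64.7 FPKM in WT (0.057, adjusted p = 0.412). The ratio of SRSF4 to SRSF6 was 0.812 and 0.774 in the libraries labelled KO, against 0.624 and 0.611 in WT. The ratio of SRSF4 to SRSF5 was 0.965 and 0.965 in the libraries labelled KO, against 0.776 and 0.770 in WT. That of SRSF5 to SRSF6 overlapped between groups, at 0.841 and 0.802 in the libraries labelled KO, against 0.804 and 0.794 in WT. TRA2B, the paralog of TRA2A, measured 36.4 and 37.6 FPKM in the libraries labelled KO and 39.0 and 38.5 FPKM in WT (−0.065, adjusted p = 0.322). TRA2A was thus the more abundant of the pair in the libraries labelled KO, with a ratio of TRA2A to TRA2B of 1.05 and 1.09, against 0.787 and 0.817 in WT. Ratios within a library do not depend on its scaling. With 2 libraries against 2, an exact two-sided permutation test of a ratio cannot give a p below 0.333, so the ratios are given without a test.

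The hnRNPs held the most abundant members, and 5 of 15 rose while 2 fell, with a median of −0.014. The share called was 46.7%, beside 49.9% of all tested genes. HNRNPA2B1, which binds pre-mRNA and sorts RNAs for transport (Entrez ID 3181, chromosome 7, 26189920 to 26200775), measured 351 and 388 FPKM in the libraries labelled KO, against 278 and 265 FPKM in WT. The groups did not overlap, and the change was 0.44 (SE 0.063, adjusted p = 0.000849). Its paralog HNRNPA1, a repressor of many exons (Entrez ID 3178, chromosome 12, 54280726 to 54287087), was lower, with 306 and 305 FPKM in the libraries labelled KO and 337 and 356 FPKM in WT (−0.18, SE 0.053, adjusted p = 0.0233). The order of the pair differed between the groups: the ratio of HNRNPA2B1 to HNRNPA1 was 1.14 and 1.27 in the libraries labelled KO, against 0.825 and 0.744 in WT. HNRNPA1 has many processed pseudogenes, and reads shared with them make its level uncertain. Its call was lost under 5 alternatives, among them the subtraction of the surrounding genes' change, which left −0.012.

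HNRNPF, which binds runs of guanines, measured 101 and 108 FPKM in the libraries labelled KO, against 78.4 and 76.2 FPKM in WT (0.43, SE 0.057, adjusted p = 0.000585). Its relative HNRNPH1 was higher by 0.16 (adjusted p = 0.0409), a call lost under 5 alternatives, among them the fits without either KO library. HNRNPR, an RNA-binding protein with arginine-glycine repeats, had 37.1 and 38.6 FPKM in the libraries labelled KO and 31.7 and 28.3 FPKM in WT (0.33, SE 0.066, adjusted p = 0.00428). HNRNPC, which binds uridine tracts and packages nascent transcripts, had 159 and 167 FPKM in the libraries labelled KO and 134 and 139 FPKM in WT (0.25, SE 0.053, adjusted p = 0.00489). These 4 genes had no overlap between groups. HNRNPC lost its call without KO replicate 2 (0.22, adjusted p = 0.0806), and HNRNPF and HNRNPR lost theirs after subtraction of the surrounding genes' change (adjusted p = 0.0868 and 0.353).

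HNRNPL, which binds CA repeats, fell, with 92.1 and 94.5 FPKM in the libraries labelled KO and 109 and 112 FPKM in WT (−0.24, SE 0.051, adjusted p = 0.00553). The call did not hold without KO replicate 1 (adjusted p = 0.0743) or relative to the surrounding genes (adjusted p = 0.196). The remaining 8 members of this group lay between −0.13 and 0.10. PTBP1, the repressor that binds pyrimidine tracts, measured 111 and 107 FPKM in the libraries labelled KO, against 113 and 127 FPKM in WT (−0.13, adjusted p = 0.133). Its low-abundance paralog PTBP3 measured 14.7 and 15.3 FPKM in the libraries labelled KO and 15.7 and 14.7 FPKM in WT (−0.014, adjusted p = 0.859), and the ratio of PTBP3 to PTBP1 overlapped between groups. HNRNPK, the third most abundant member at a mean of 246 FPKM, had a change of 0.0019.

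**Figure D2:**
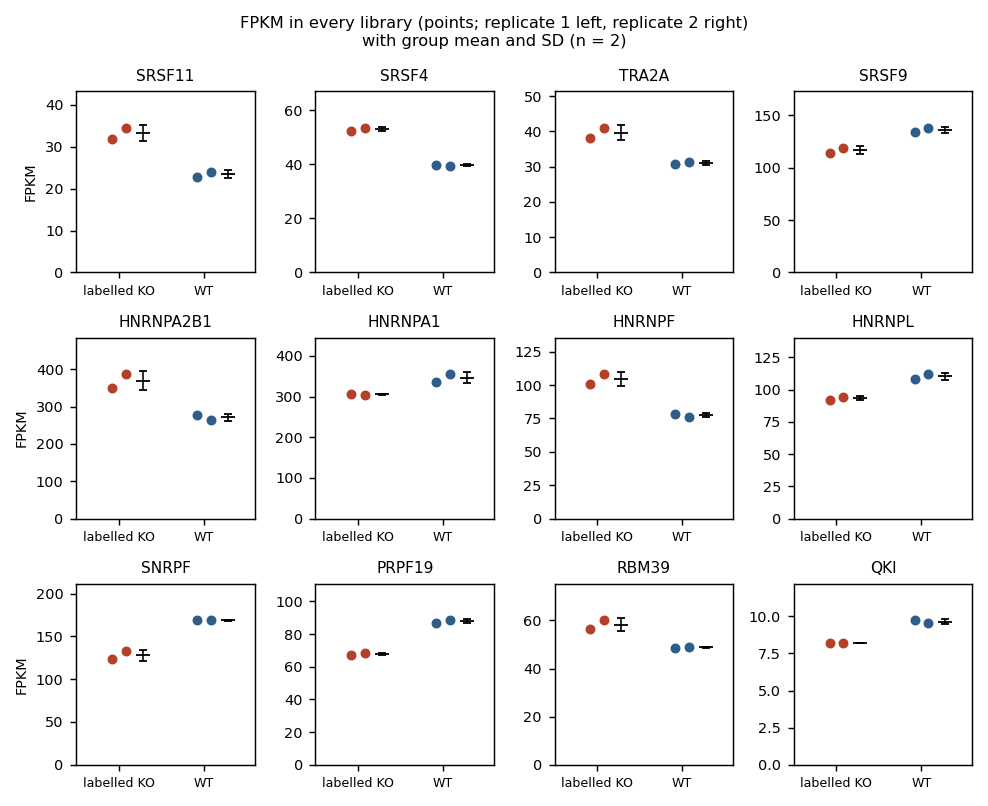
FPKM of 12 members in every library, with the libraries labelled KO on the left, WT on the right and the group mean ± SD (n = 2) beside the points; axes start at 0. All 12 were chosen from the called members, so it follows from the choice that the groups stay apart in each panel. Groups did not overlap in 36 of 54 tested members and in 77.5% of all tested genes. The distance is small compared with the level: HNRNPA2B1, for example, has 351 and 388 FPKM in the libraries labelled KO and 278 and 265 FPKM in WT.

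Of 16 tested core spliceosome members, 4 fell (25.0%, beside 28.4% of all tested genes) and 1 rose. A change below 0 was seen in 14 of them, with a median of −0.092, and in 56.2% of all tested genes; after median-of-ratios scaling it was 9 of 16, beside 47.9% of all genes. The members include 6 Sm proteins of the ring on spliceosomal small nuclear RNAs: SNRPB, SNRPD1, SNRPD2, SNRPE, SNRPF and SNRPG. Each of these 6 had a change below 0 (5 of 6 after median-of-ratios scaling), with a median of −0.13, and 2 of them fell. SNRPD3, an Sm protein of the ring outside the members, stood at −0.058 and was not called (limma adjusted p = 0.377). SNRPF (Entrez ID 6636, chromosome 12, 95858952 to 95866140) measured 123 and 133 FPKM in the libraries labelled KO, against 169 and 169 FPKM in WT. Its groups were well apart, and the change of −0.40 (SE 0.056, adjusted p = 0.000725) was the largest fall of any member. SNRPD2 measured 154 and 153 FPKM in the libraries labelled KO and 166 and 174 FPKM in WT (−0.15, SE 0.051, adjusted p = 0.0415). The call of SNRPD2 was lost in 11 of 16 alternatives.

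PRPF19, the ubiquitin ligase of the Prp19 complex that activates the spliceosome (Entrez ID 27339, chromosome 11, 60890547 to 60906585), measured 67.3 and 68.2 FPKM in the libraries labelled KO, against 87.0 and 88.7 FPKM in WT. Both groups were tight and did not overlap (−0.37, SE 0.050, adjusted p = 0.000648). SNRPA, a protein of the U1 particle, had 61.5 and 58.8 FPKM in the libraries labelled KO and 66.2 and 76.2 FPKM in WT (−0.24, SE 0.073, adjusted p = 0.0291). WT replicate 2 was the highest of the 4 libraries, and the call was lost under 6 alternatives, including the fits without either KO library.

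SF3A3, a subunit of the U2 particle, was the core member that rose, with 56.1 and 57.7 FPKM in the libraries labelled KO, against 51.9 and 50.2 FPKM in WT (0.15, SE 0.052, adjusted p = 0.0383). The call was lost under 7 alternatives, and its direction turned to −0.091 (adjusted p = 0.20) once the change of its chromosomal surroundings was subtracted. The other SF3 members SF3A1, SF3B1, SF3B2 and SF3B3, among them the branch-site protein SF3B1, ranged from −0.065 to 0.050 and were not called. PRPF8, the protein at the centre of the catalytic core, measured 109 and 112 FPKM in the libraries labelled KO and 117 and 104 FPKM in WT (−0.0083, adjusted p = 0.926).

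U2AF2, which binds the pyrimidine tract, measured 86.3 and 83.1 FPKM in the libraries labelled KO, against 84.1 and 89.6 FPKM in WT (−0.036, adjusted p = 0.620). Its partner U2AF1, which contacts the AG at the end of the intron (Entrez ID 7307, chromosome 21, 43092956 to 43108291), was listed at 0.40 and 0.259 FPKM in the libraries labelled KO, against 0.288 and 0.409 FPKM in WT. These values rest on 17 to 36 fragments a library, and the groups overlap. The table also lists U2AF1L5, a near-identical copy on the same chromosome, at 0.424 and 0.325 FPKM in the libraries labelled KO, against 0.329 and 0.354 FPKM in WT. Reads that fit both copies equally can be lost in counting, so the level of U2AF1 is uncertain and no change can be read from it.

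The members' FPKM were also summed over each group. The 15 hnRNPs summed to 2069 and 2152 FPKM in the libraries labelled KO, against 1999.9 and 2015 FPKM in WT, and the core members to 1242 and 1231 FPKM in the libraries labelled KO, against 1339 and 1385 FPKM in WT. Neither pair of sums overlapped. Without HNRNPA2B1 the hnRNP sums were 1718 and 1765 FPKM in the libraries labelled KO and 1722 and 1750 FPKM in WT, which overlap, so that gap rests on 1 gene. Without SNRPF the core sums were 1119 and 1099 FPKM in the libraries labelled KO, against 1170.3 and 1216 FPKM in WT. The SR proteins summed to 717 and 743 FPKM in the libraries labelled KO and 693 and 719 FPKM in WT, and all 55 members to 4274 and 4382 FPKM in the libraries labelled KO and 4281 and 4360 FPKM in WT, with overlap in both cases. In bulk RNA, fewer cells with a transcript and less of it per cell cannot be told apart.

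Among 7 regulators, 1 rose and 1 fell (28.6% called, beside 49.9% of all tested genes), with a median of 0.016. RBM39, a relative of U2AF2 that acts as a splicing factor and coactivator, measured 56.3 and 60.2 FPKM in the libraries labelled KO, against 48.5 and 49.0 FPKM in WT (0.25, SE 0.055, adjusted p = 0.00648). It rose although the other genes of its stretch of chromosome 20 had a median of −0.12, and the call was lost without KO replicate 2 (0.20, adjusted p = 0.101). QKI, a STAR-family protein that steers splicing and circular RNA formation, measured 8.23 and 8.21 FPKM in the libraries labelled KO, against 9.76 and 9.52 FPKM in WT (−0.21, SE 0.055, adjusted p = 0.0151). It fell in a stretch of chromosome 6 with a median of 0.10, and the call was lost after median-of-ratios scaling and without either KO library.

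MBNL1 and MBNL2, the muscleblind proteins known from myotonic dystrophy, had opposite signs without being called. MBNL1 measured 23.9 and 24.3 FPKM in the libraries labelled KO, against 26.1 and 26.0 FPKM in WT (−0.11, adjusted p = 0.116). MBNL2 measured 10.6 and 10.7 FPKM in the libraries labelled KO and 10.2 and 9.03 FPKM in WT (0.13, adjusted p = 0.144). The ratio of MBNL2 to MBNL1 did not overlap between groups, at 0.443 and 0.439 in the libraries labelled KO and 0.392 and 0.348 in WT. RBFOX2, CELF1 and RBM25 were not called either, with changes of 0.081, −0.12 and 0.016.

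The 4 kinases of SR proteins had changes between −0.055 and 0.078, and 0 of 4 were called (limma; 0 of 4 at an unadjusted p under 0.05, and 0 of 4 in each of the 16 alternatives, voom included). Of all tested genes, 49.9% were called. CLK1 measured 10.96 and 11.9 FPKM in the libraries labelled KO, against 10.4 and 11.1 FPKM in WT (adjusted p = 0.339). CLK4 measured 6.26 and 6.41 FPKM in the libraries labelled KO and 6.59 and 6.65 FPKM in WT (adjusted p = 0.441). Both are nuclear kinases that release SR proteins from speckles. The ratio of CLK4 to CLK1 was 0.572 and 0.538 in the libraries labelled KO, against 0.632 and 0.598 in WT, without overlap. SRPK1, the main cytoplasmic kinase of SR proteins, measured 65.6 and 66.4 FPKM in the libraries labelled KO, against 69.2 and 64.1 FPKM in WT (adjusted p = 0.866), and SRPK2 measured 6.62 and 7.59 FPKM in the libraries labelled KO and 7.50 and 6.90 FPKM in WT (adjusted p = 0.851). The groups of both SRPK genes overlapped.

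**Figure D3:**
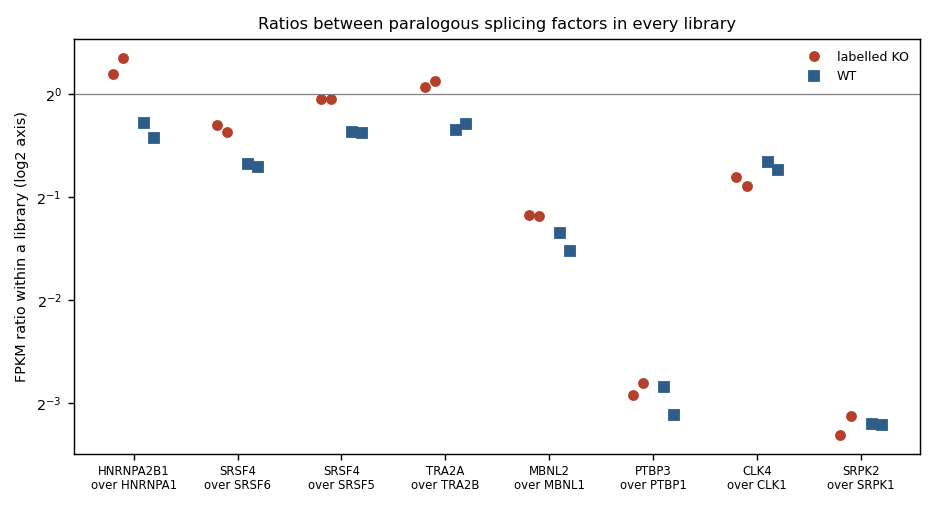
Ratio of FPKM between paralogous members within each library on a log2 axis, with the libraries labelled KO as circles on the left and WT as squares on the right of each pair. HNRNPA2B1 over HNRNPA1 and TRA2A over TRA2B lie above 1 in the libraries labelled KO (1.14 and 1.27, 1.05 and 1.09) and below 1 in WT, while PTBP3 over PTBP1 and SRPK2 over SRPK1 overlap.

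The members' positions were set beside their changes. Genes were grouped in bins of 20 Mb, and the median change of the other tested genes in a member's bin was set beside the member. Of the 11 members called higher, 8 lay in bins with a median of at least 0.18, as did 12.8% of all tested genes and 39.2% of all genes called higher. That cut sits just under the lowest of these 8 medians (0.182, around TRA2A and HNRNPA2B1), so the shares are a description only. Bins with a median below 0 held 7 of the 8 members called lower and 29 of the 35 not called. They also held 75.2% of all tested genes and 91.2% of all genes called lower. Relative to their bins, 3 of the 8 falls and 6 of the 11 rises kept their calls. SRSF4, SRSF10, HNRNPR and SF3A3 share the bin from 20 to 40 Mb of chromosome 1, where 120 of 194 tested genes rose and 10 fell, with a median of 0.24. The bin of SRSF11, on the same chromosome, had a median of 0.22. TRA2A and HNRNPA2B1 lie 2.66 Mb apart on chromosome 7, where the bin median was 0.18. The median around HNRNPF on chromosome 10 was 0.29. Across the 54 members, Pearson's r between a member's change and its bin median was 0.60, a description only, since members share bins and all values share the 4 libraries.

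After each bin's median was subtracted, 10 members were higher and 4 lower, beside 19.9% and 19.6% of all genes, and 9 of the 19 main calls kept their direction and threshold. Those were SRSF4, SRSF11, HNRNPA2B1, HNRNPC, HNRNPH1, RBM39, SNRPF, PRPF19 and QKI. The change of SRSF11 was then 0.26 (adjusted p = 0.0114) and that of SRSF4 0.17 (adjusted p = 0.0335). SNRPF stood at −0.25 (adjusted p = 0.00888) and PRPF19 at −0.26 (adjusted p = 0.00538). HNRNPD, which binds AU-rich elements, was not called as deposited (137 and 143 FPKM in the libraries labelled KO, 152 and 153 FPKM in WT; −0.12, adjusted p = 0.0811). Its bin on chromosome 4 had a median of 0.34, and relative to it HNRNPD stood at −0.46 (adjusted p = 0.000389). That bin was mixed, with 23 of 44 tested genes higher and 13 lower. HNRNPDL, in the same bin but outside the members, likewise went from 0.049 to −0.29 (limma adjusted p = 0.0041) relative to it. SRSF6, MBNL2, HNRNPU and RBFOX2 were called higher relative to their bins. Each bin median was subtracted as a fixed value, so p-values relative to bins leave out its uncertainty. Some medians rested on few other genes: 16 for MBNL2, 21 for QKI and 26 for HNRNPU, beside 100 for SRSF6 and 163 for RBFOX2. Whether DNA copy number differs between the cells was not tested.

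**Figure D4:**
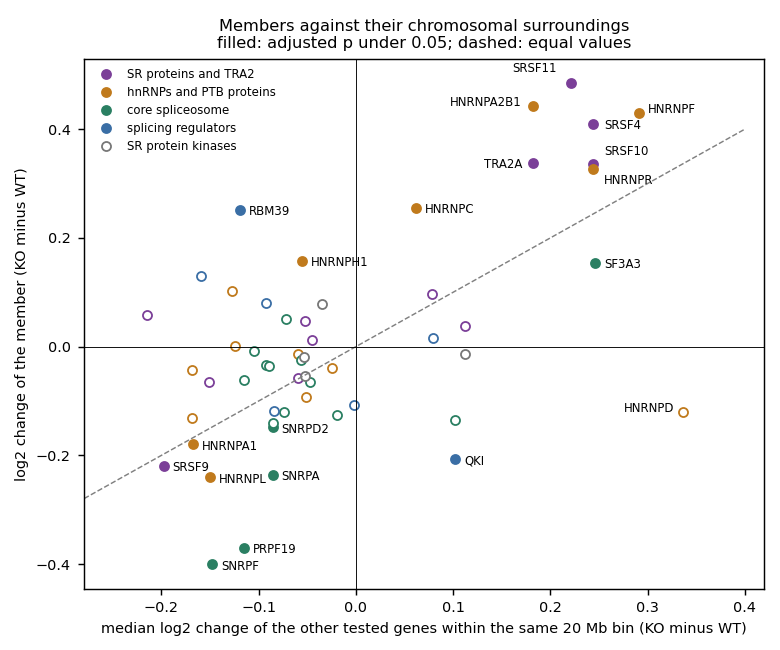
Log2 change of each of the 54 tested members (vertical) against the median log2 change of the other tested genes in its 20 Mb bin (horizontal), both libraries labelled KO minus WT; filled points passed an adjusted p of 0.05 and the dashed line marks equal values. Of the 11 members called higher, 8 sit at the upper right at bin medians of 0.18 to 0.29. The rises of RBM39 and HNRNPH1 and the fall of QKI lie in bins whose median has the other sign.

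Several members start close to a gene on the other strand, and the level of that gene was set beside theirs. Of 13 members with such a start within 1000 bp, 8 had a partner that could be tested. CBX3, a heterochromatin protein whose start lies 668 bp from that of HNRNPA2B1, measured 80.7 and 80.5 FPKM in the libraries labelled KO, against 67.8 and 71.6 FPKM in WT (0.21, adjusted p = 0.0122). CBX5, the relative of CBX3 that starts 604 bp from HNRNPA1, had a change of 0.044 (adjusted p = 0.565), beside the fall of HNRNPA1. LRRC40, 20 bp from SRSF11, rose by 0.22 (adjusted p = 0.0125), less than SRSF11. QPCTL, beside SNRPD2, fell by 0.37 (adjusted p = 0.00198), and TFPT, beside PRPF31, fell by 0.29 (adjusted p = 0.00566), while DYNLL1, beside SRSF9, stood at 0.011 (adjusted p = 0.873). The calls of CBX3 and LRRC40 were lost without either KO library and relative to their bins (0.027 and −0.0016), and that of TFPT without KO replicate 2. The strand setting of the counting is not given in the sources used here, so reads of overlapping antisense genes cannot be told apart.

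Beyond the 55 members, 126 further splicing genes were examined, of which 119 were tested, and 15 rose and 37 fell, with a median of −0.069. That is 43.7% called, against the 49.9% of all genes. Of the proteins that assemble the Sm ring, 8 of 11 fell and 0 rose, with a median of −0.20, beside 28.4% of all genes lower. WDR77, the methylosome subunit that pairs with PRMT5 to methylate Sm proteins, measured 21.9 and 21.9 FPKM in the libraries labelled KO, against 29.8 and 32.8 FPKM in WT (−0.49, SE 0.061, adjusted p = 0.000432). STRAP, a partner of the SMN complex, measured 85.6 and 86.5 FPKM in the libraries labelled KO, against 113 and 104 FPKM in WT (−0.33, SE 0.057, adjusted p = 0.00214). CLNS1A, the pICln chaperone that holds Sm proteins before assembly, measured 23.1 and 23.8 FPKM in the libraries labelled KO and 28.8 and 29.3 FPKM in WT (−0.30, SE 0.052, adjusted p = 0.00229). These 3 genes kept their calls in all 16 alternatives.

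GEMIN4, GEMIN5, GEMIN7, DDX20 and PRMT5 fell as well, by 0.18 to 0.28, and SMN1, GEMIN2 and GEMIN6 were not called. SMN1 has the near-identical copy SMN2, so its level is uncertain. The count of falls in this list was 4 with no filter, 4 after median-of-ratios scaling, 4 without either KO library and 5 with bin medians subtracted, and 0 of its genes rose in any alternative (limma and voom; 0 also at an unadjusted p under 0.05 in the fit reported).

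In the wider core spliceosome, 8 of 56 rose and 18 fell, with a median of −0.080. That is 46.4% called, beside 49.9% of all tested genes (21.6% higher and 28.4% lower). The falls numbered 4 to 23 over all alternatives and were fewer without either KO library, as were those among all genes. The small subunits of SF3b, SF3B4, SF3B5, SF3B6 and PHF5A, fell by 0.22 to 0.29, though 2 falls were left without KO replicate 2 and 1 with no filter. SF3A2, another SF3 subunit, stood at −0.32 without being called (adjusted p = 0.0506) and was called lower in 9 alternatives. The largest fall of this class was that of TXNL4A, a protein of the U5 particle, with 6.0 and 6.35 FPKM in the libraries labelled KO, against 7.77 and 8.55 FPKM in WT (−0.35, adjusted p = 0.00300), followed by LSM7 (−0.34) and CRNKL1 (−0.30, lost without KO replicate 1). Of 7 LSM proteins, which bind the U6 RNA, LSM2, LSM3, LSM4 and LSM7 fell and LSM6 rose. The 4 falls were all lost with no filter, and 3 of them were lost without KO replicate 1 and 3 relative to their bins. LSM6 measured 4.78 and 4.96 FPKM in the libraries labelled KO, against 3.04 and 2.87 FPKM in WT (0.57, adjusted p = 0.000222). LSM6 and the next largest rises, PLRG1 (0.33) and DHX15 (0.29), all lie on chromosome 4 in bins with medians of 0.45, 0.46 and 0.30, and none of these 3 calls held relative to them.

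Among other SR-like proteins, 2 of 16 rose and 2 fell (25.0% called, beside 49.9% of all tested genes). SRRM1 (0.36) and SREK1 (0.30) rose, while RNPS1, which links splicing to the exon junction complex, fell to 44.9 and 44.6 FPKM in the libraries labelled KO, against 57.1 and 61.5 FPKM in WT (−0.40, adjusted p = 0.000809), and SCAF4 fell by 0.22. Other hnRNPs and related proteins counted 2 rises and 4 falls among 18 (33.3% called). HNRNPH3 (0.36) and RBMX (0.31) rose in bins with medians of 0.35 and 0.42, and RALY (−0.30), KHSRP (−0.29) and HNRNPUL2 (−0.24) were the largest falls. Relative to their bins, the calls of SRRM1, HNRNPH3, RBMX, SCAF4, KHSRP and HNRNPUL2 were lost, and SREK1 lost its call without KO replicate 2.

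Other regulators held the largest changes among the members and these further splicing genes, with 3 of 14 higher and 5 lower. The share called was 57.1%, beside 49.9% of all tested genes (21.6% higher and 28.4% lower). RBM17, a U2-associated factor, measured 23.6 and 26.5 FPKM in the libraries labelled KO, against 39.7 and 39.5 FPKM in WT (−0.64, SE 0.065, adjusted p = 0.000176). CELF2, from the same bin of chromosome 10 with a median of −0.32, measured 3.57 and 3.80 FPKM in the libraries labelled KO and 5.995 and 5.92 FPKM in WT (−0.57, SE 0.059, adjusted p = 0.000206). Both calls held relative to that bin. MBNL3, the third muscleblind gene, measured 1.90 and 1.87 FPKM in the libraries labelled KO, against 0.921 and 0.829 FPKM in WT (0.62, SE 0.065, adjusted p = 0.000207), with a median of 0.36 in its bin on the X chromosome. It passed the filter through the libraries labelled KO, and its change was 1.09 with voom on fragments, since the pseudocount understates changes at such levels. TIA1 (0.31) and SFPQ (0.29) also rose, and KHDRBS3 fell by 0.34. Both rises were lost without KO replicate 2, and that of SFPQ also relative to its bin (0.050, adjusted p = 0.531). The epithelial splicing regulator ESRP1 stood between 0.0632 and 0.169 FPKM and NOVA1 was listed at 0 in every library.

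**Figure D5:**
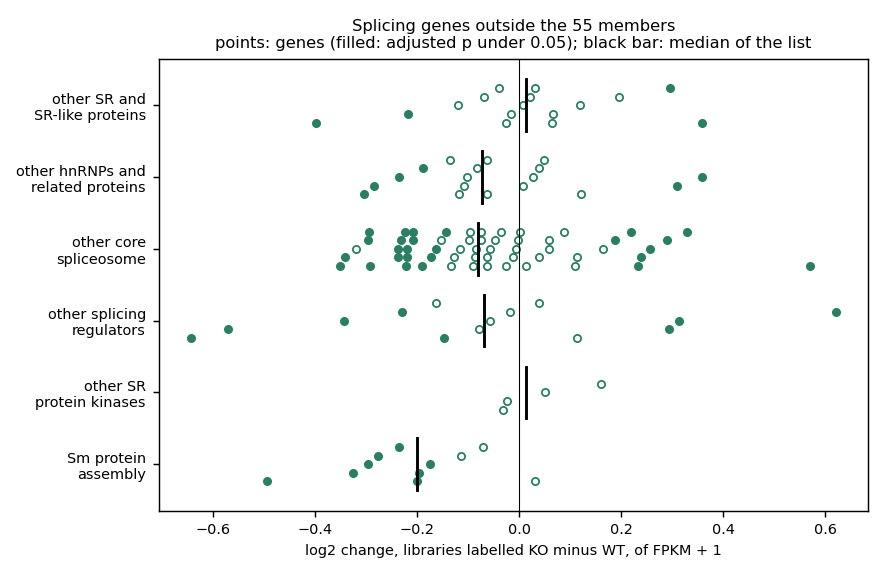
Log2 change (libraries labelled KO minus WT, of FPKM + 1) of the 119 tested splicing genes outside the 55 members, one point per gene, filled where the adjusted p passed 0.05, with a black bar at each list's median. The list for Sm protein assembly has its median at −0.20 and 8 of 11 genes called lower, beside 28.4% of all tested genes.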

How the data were processed

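Total RNA of cultured cells was sequenced by a service company on an Illumina platform, per the labels' protocols, and grouped by title. STAR, Subread and DESeq2 are named in the submitters' processing notes; settings, genome build and strandedness were not given in the sources used here. Per gene, the authors deposited FPKM by Entrez ID with exon coordinates and lengths, per the file headers. FPKM times length gave whole fragments for 100% of values (tolerance 0.001), which gave the depths. Symbols came from RefSeq (GRCh38.p14) for 37708 genes (96.0%), and 98.4% of 37675 matched genes start or end within 1000 bp of that build.

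Limma (version 3.58.1, R 4.3.3; lmFit, eBayes with trend and robust) was run on log2(FPKM + 1), KO minus WT, keeping genes whose mean reached 1 FPKM, with Benjamini-Hochberg adjustment over all 11716 genes; it was tested on simulated data, where it called more unchanged genes than the nominal rate. The pseudocount understates changes of low genes. Alternatives were no filter or a filter at 5 FPKM, a pseudocount of 0.1, quantile and median-of-ratios scaling, limma without trend or robust, voom on fragments, a length trend removed, each library left out in turn and a replicate block. Added after seeing the data were 20 Mb bin medians subtracted, length and GC trends removed (GC known for 96.8% of tested genes) and a crossed replicate block.

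The members and lists were chosen with earlier results of these data known. Full values are given, per role, for up to 4 members with the largest rise and up to 4 with the largest fall past the threshold, and for the paralog groups. The 3 largest changes in each direction are named among other splicing genes, and the small SF3b subunits, LSM proteins, neighbours and bin-shifted members were chosen after their values were seen. No library was left out: chi-square per degree of freedom was 5.69 within the KO pair, 8.23 within the WT pair and 55.1 to 73.8 across groups. 1 marker of other cell types is not reported here.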

Additional observations from a re-analysis of the deposited data

How the results depend on the processing

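Leaving out each library in turn gave 1559 to 3076 higher and 1962 to 4001 lower genes of all those tested, 7 to 13 higher and 2 to 13 lower members, and 6 to 19 higher and 15 to 45 lower genes among the other splicing genes. In these fits the lone library was assumed to vary like the complete pair. The lower members numbered 5 with no filter on low values, 4 after median-of-ratios scaling, 4 with bin medians subtracted and 15 with length and GC trends removed. In that last fit 3906 of 11343 genes were lower. The other splicing genes numbered 9 higher with bin medians subtracted, and 16 lower with no filter, 21 after median-of-ratios scaling and 24 with bin medians subtracted. Only 2240 higher and 2664 lower of 25798 genes were called with no filter, where more genes are adjusted for. SF3A3 reversed to −0.091 with bin medians subtracted, and the cause was not tested. Of 864 values of a called or uncalled member under an alternative, 784 kept their direction and side of the threshold, 48 lost a call and 31 gained one. A further 65 values of 21 members changed sign while past the threshold in neither fit, which is counted apart. The labels do not say that equal replicate numbers share a culture, and deviations from the group means correlated at −0.225 for equal numbers, so no pairing was assumed. With a replicate block, 9 members were higher and 7 lower (2348 and 3029 of all genes, 15 and 33 of the other splicing genes). With crossed numbers as the block, 11 members were higher and 11 lower (2839 and 3821 of all genes). WT replicate 2, with 22503981 fragments, limits the precision of genes near 1 FPKM. Among the tested members the fewest fragments in a library numbered 375.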

Other observations

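Genes for processes linked to splicing were also measured, in lists chosen after the data were seen. Of 15 genes for nonsense-mediated decay and the exon junction complex, 2 rose and 3 fell (33.3% called, beside 49.9% of all genes; median −0.058). UPF3B, an X-linked factor that joins the junction complex to the decay machinery, measured 10.6 and 11.5 FPKM in the libraries labelled KO, against 6.38 and 6.26 FPKM in WT (0.72, SE 0.062, limma adjusted p = 8.7e-05), in a bin with a median of 0.36. MAGOH, a core subunit of the junction complex, measured 61.2 and 63.5 FPKM in the libraries labelled KO and 48.0 and 48.7 FPKM in WT (0.36, adjusted p = 0.000846, bin median 0.23), a call lost relative to its bin (0.13, adjusted p = 0.0804). EIF4A3, its helicase partner, fell by 0.21, and SMG9 and the helicase UPF1 by 0.20 and 0.17. These 3 calls were lost without either KO library and relative to their bins (−0.067, −0.11 and −0.00041). UPF2, SMG1 and SMG5 were among the 10 genes not called.

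Of 7 tested proteins of the minor spliceosome, which removes the rare U12-type introns, 1 rose and 2 fell. That is 42.9% called, beside 49.9% of all tested genes. SNRNP25 measured 22.5 and 21.8 FPKM in the libraries labelled KO, against 28.4 and 28.8 FPKM in WT (−0.36, adjusted p = 0.000985), and SNRNP48 fell by 0.26, which did not hold without KO replicate 1. ZCRB1 rose by 0.26 in a bin with a median of −0.17, a call lost without KO replicate 2. Of 4 import receptors and adaptors for splicing factors, SNUPN, which carries assembled small nuclear RNPs into the nucleus, measured 10.6 and 10.3 FPKM in the libraries labelled KO and 7.94 and 7.91 FPKM in WT (0.36, adjusted p = 0.00111, bin median 0.25), a call lost relative to its bin (0.11, adjusted p = 0.136). TNPO1, TNPO3 and KPNB1 were not called.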
